A study of Mus musculus with 6 samples.

Results

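Cells that had been induced to become regulatory T cells in culture and later lost the Foxp3 reporter (ex-iTreg cells) were compared with natural regulatory T cells (nTreg cells) recovered from the same kind of host. The comparison used the 2 arrays titled ex-iTreg and the 2 arrays titled nTreg, which are 4 of the 6 arrays of the series, chosen by those titles alone. The remaining 2 arrays hold induced cells that kept the reporter (iTreg cells) and serve as the stage between them, so that every ex-iTreg minus nTreg difference is the sum of a first step (iTreg minus nTreg) and a second step (ex-iTreg minus iTreg).

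All 3 populations came from BALB/c hosts lacking Rag1, which make no T or B cells of their own and had received wild-type nTreg cells together with 500000 wild-type iTreg cells made in culture. On day 125, spleen and mesenteric lymph node cells of 14 such mice were stained for CD4, sorted and pooled. EGFP reported Foxp3 and Thy1.1 marked the progeny of the transferred iTreg cells. ex-iTreg cells were Thy1.1+ without EGFP, iTreg cells carried both marks, and nTreg cells carried EGFP without Thy1.1. The first step therefore crosses only the Thy1.1 gate, the second step crosses only the EGFP gate, and the whole comparison crosses both. Whether both pools of a population came from different mice is not stated in the labels. The p-values therefore rest on pool-to-pool spread that may be only technical.

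Foxp3 is the transcription factor that maintains the regulatory program, which includes high IL-2 receptor alpha chain, Ctla4 and Il10 and little IL-2 or effector cytokine. Regulatory T cells that arise in the thymus and those that arise in the periphery or in culture share most of this program but are commonly told apart by factors such as Helios, encoded by Ikzf2. Cells that lose Foxp3 have been described to take on effector T cell genes, which in gut inflammation are often those of Th1 and Th17 cells.

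Values are the deposited log2 expression values of 1 Affymetrix probe set per gene, and array medians lay between 5.47 and 5.49. The median of all values, 5.48, served as a filter level: 11019 genes lay above it in at least 2 of the 6 arrays, and a mean under it is near background, so that the size of a difference that starts or ends there is not resolved. Foxp3 itself read 3.995 and 4.07 in ex-iTreg arrays, 4.02 and 3.99 in iTreg arrays and 4.05 and 4.29 in nTreg arrays. Its probe set was under the filter level throughout, was not tested, and could not serve to check the labels. Of the T cell genes, Thy1 was between 11.48 and 12.28 and Cd4 between 8.89 and 9.31 in the 6 arrays.

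The ex-iTreg and nTreg arrays differed at 4122 of 11019 genes by limma at an adjusted p under 0.05 (37.4%), with 2025 higher in ex-iTreg (18.4%) and 2097 lower (19%). Differences of at least 2-fold were mostly losses: 424 genes were lower in ex-iTreg (3.85%) and 218 were higher (1.98%), together 642 genes (5.83%). At 4-fold or more there were 104 lower and 61 higher genes. All 642 genes had both ex-iTreg pools on one side of both nTreg pools, as did 71.1% of all genes tested. The count of genes called higher fell to 1136 without ex-iTreg pool 1 and to 1161 without ex-iTreg pool 2, while the counts of at least 2-fold moved by less than 1.5 times when any array was left out. The median of all genes was 0.03 on the log2 scale. RMA's normalization aligns the arrays, so a shift common to most genes cannot be seen in these values.

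Of 25 tested genes of the Treg cell list, 23 fell in ex-iTreg cells relative to nTreg cells, 20 of them at least 2-fold, 1 rose and 1 was not called. The median log2 difference of the list was -2.84, beside 0.03 over all genes and 19% of all genes called lower. This list and those below were chosen with earlier results of these data known. Their shares beside those of all genes are therefore descriptions and not independent tests. These arrays measure RNA of whole pools, so fewer cells expressing a gene and less RNA per cell cannot be told apart. All 24 calls held when any pool was left out.

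Il2ra, the high-affinity chain of the IL-2 receptor, read 6.69 and 6.84 in ex-iTreg arrays, 9.95 and 9.95 in iTreg arrays and 10.06 and 9.98 in nTreg arrays. The ex-iTreg pools lay far below all 4 others, and the iTreg pools lay just under the nTreg pools. Its fall of 9.54-fold (log2 difference -3.25, SE 0.0763, adjusted p = 1.98e-06 by limma) thus lay almost wholly in the second step (-3.18). Ctla4, an inhibitory receptor central to suppression, read 12.57 and 12.72 in ex-iTreg arrays, 13.27 and 13.30 in iTreg arrays and 13.73 and 13.75 in nTreg arrays. It fell without overlap between any of the populations, at a log2 difference of -1.09 (adjusted p = 0.000119). Itgae, the alpha chain of the CD103 integrin that holds lymphocytes to epithelium, read 9.14 and 9.23 in ex-iTreg arrays, 12.49 and 12.45 in iTreg arrays and 12.80 and 12.75 in nTreg arrays. Nearly all of its 12-fold fall separated ex-iTreg cells from both reporter-positive populations.

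Other members fell by amounts that ranged widely. Klrg1, an inhibitory lectin receptor of terminally activated Treg cells, had the largest fall with both means above the filter level (log2 difference -4.70, 26-fold). Itgb8, whose protein pairs with the alpha V integrin chain to activate TGF-beta, fell to a mean near background in ex-iTreg cells, at 3.59 and 3.81 in ex-iTreg arrays, 7.95 and 7.96 in iTreg arrays and 9.46 and 9.24 in nTreg arrays. Receptors of the TNF receptor family fell in both steps: Tnfrsf9 by 11.8-fold, Tnfrsf4 by 3.94-fold and Tnfrsf18 by 3.42-fold overall. Penk, which encodes proenkephalin, fell by 14.4-fold and Capg, an actin-capping protein gene, by 2.69-fold. Icos, a costimulatory receptor, fell by 1.35-fold, all of it in the first step (-0.54), while Nt5e, which encodes the CD73 ectonucleotidase, was not called (log2 difference -0.11, adjusted p = 0.343). Nebl, an actin-binding protein gene that the list holds as a Treg-associated transcript, was the member that rose, by 4.38-fold.

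**Figure D1:**
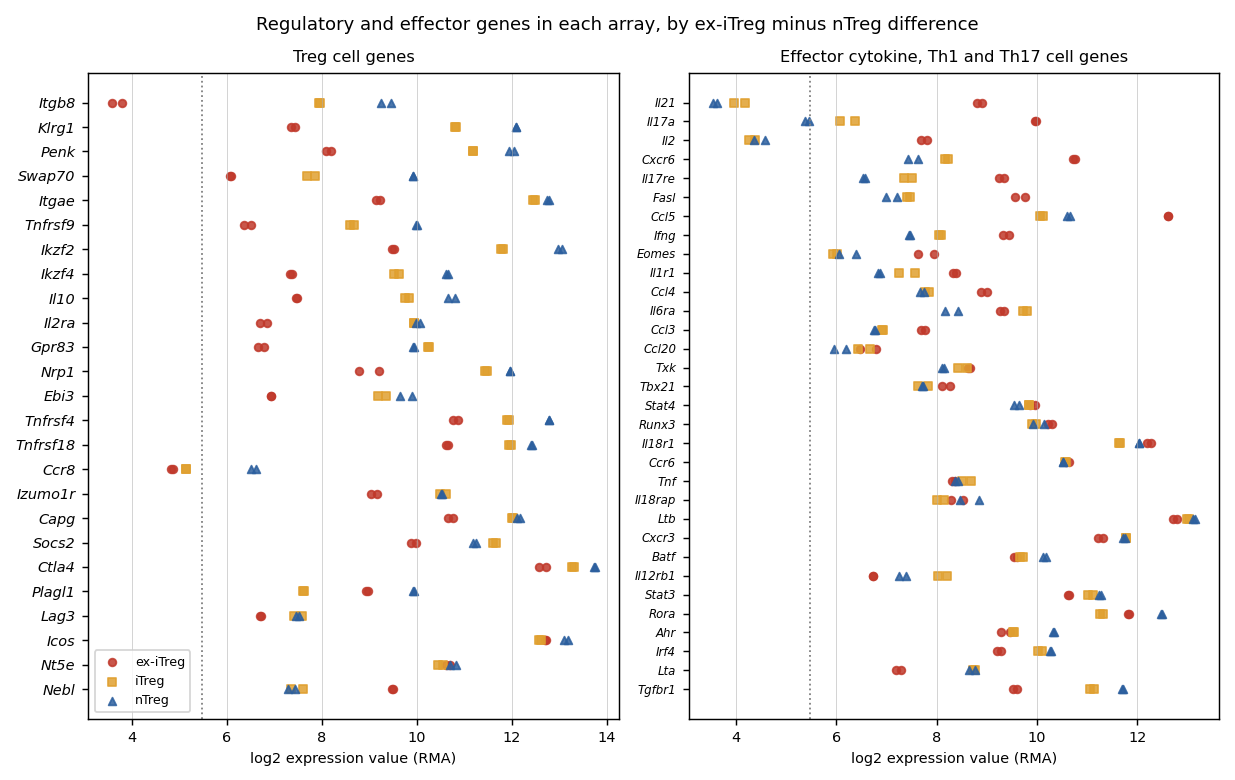
Log2 expression (x axis) of tested Treg cell genes (left) and of effector cytokine, Th1 and Th17 cell genes (right) in each array, with 2 ex-iTreg (red circles), 2 iTreg (orange squares) and 2 nTreg (blue triangles) pools per gene and the filter level of 5.48 as a dotted line. Genes run from the largest fall down to the largest rise on the left and from the largest rise down to the largest fall on the right. On the left ex-iTreg points lie to the left of nTreg points for all genes but Nt5e, where they meet, and Nebl, while on the right Il21, Il17a and Il2 have ex-iTreg points far to the right of the others.

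Genes used to mark Treg cells of thymic origin all fell, 6 of 6 (19% over all genes), at a median log2 difference of -3.25. Ikzf2, which encodes Helios, read 9.53 and 9.48 in ex-iTreg arrays, 11.81 and 11.77 in iTreg arrays and 12.97 and 13.06 in nTreg arrays. Its pools did not overlap, and ex-iTreg cells were 11.4-fold below nTreg cells, with -1.22 in the first step and -2.29 in the second. Ikzf4, which encodes the related factor Eos, had the same division (first step -1.06, second step -2.23). Nrp1, a semaphorin co-receptor at the Treg cell surface, fell mostly in the second step (-2.46 of -2.97). Swap70, an actin and Rac regulator gene, lost more in the first step (-2.15) than in the second (-1.69). Gpr83, an orphan receptor gene of Treg cells, was higher in iTreg than in nTreg arrays (0.32, adjusted p = 0.017) before a second step of -3.54. Plagl1, a zinc finger factor gene, was at 8.93 and 8.98 in ex-iTreg arrays, 7.62 and 7.62 in iTreg arrays and 9.93 and 9.95 in nTreg arrays, so that its first step of -2.33 was followed by a second step of 1.33 and the whole fall was 1.99-fold. Another Plagl1 probe set was not called (-0.008, adjusted p = 0.944 by limma), with called steps of -0.53 and 0.53. The fall of Plagl1 thus depends on the probe set.

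Suppressive mediators fell as well, with 10 of 12 lower (19% over all genes), 1 higher (18.4%) and a median of -1.16. Il10, the main suppressive cytokine of gut Treg cells, read 7.45 and 7.49 in ex-iTreg arrays, 9.76 and 9.83 in iTreg arrays and 10.81 and 10.65 in nTreg arrays. Its 9.59-fold fall (log2 difference -3.26, adjusted p = 2.07e-06) ran through both steps without overlap. Ebi3, a subunit of IL-35 and IL-27, fell by 7.17-fold and Fgl2, a secreted fibrinogen-like suppressor, by 4.75-fold. Entpd1, which encodes the CD39 ectonucleotidase, fell by 2.76-fold and Gzmb, granzyme B, by 2.71-fold. For both, the first step was not called. At another Entpd1 probe set it was called (-1.21, adjusted p = 0.00013 by limma), and at a further one it was not (-0.03). The steps of Entpd1 thus depend on the probe set. Tgfb1 was lower by a log2 difference of -0.61, and this call was lost without ex-iTreg pool 1 (adjusted p = 0.0505). Prf1, which encodes perforin, was the mediator that rose, by 1.45-fold.

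Around the IL-2 receptor, the cytokine rose while its receptor and feedback genes fell. IL-2 is made by conventional T cells, and Treg cells, which consume it, repress the gene. Il2 read 7.69 and 7.81 in ex-iTreg arrays, 4.26 and 4.37 in iTreg arrays and 4.36 and 4.57 in nTreg arrays. The iTreg and nTreg pools overlapped under the filter level, so the log2 difference of 3.29 (SE 0.0962, adjusted p = 4.39e-06) starts near background. Il2rb, the receptor's signalling chain shared with IL-15, fell by 2.22-fold and Cish, an inhibitor induced by the receptor's STAT5 signal, fell by 3.28-fold. Socs1 and Socs2, of the same inhibitor family, fell by 2.02-fold and 2.43-fold, whereas Socs3 was not called (log2 difference 0.11). Jak1 and Jak3, the receptor's kinases, were not called either (0.08 and -0.21). Another Jak1 probe set was called higher (1.04, adjusted p = 0.000142 by limma), while a further one was not called (0.06). Bcl2, a survival gene, rose by 1.64-fold (log2 difference 0.72) at the probe set used. Other Bcl2 probe sets were called higher by 1.84, 1.81, 1.40 and 0.67, so the size of its rise depends on the probe set. In all, 9 of 14 genes of this list fell (19% over all genes), 2 rose (18.4%) and the median was -0.52. The call of Il15ra, lower by 1.55-fold, was lost without ex-iTreg pool 2 (adjusted p = 0.0598), and that of Stat5a, lower by 1.21-fold, was lost when any of the 6 arrays was left out (adjusted p up to 0.219, without ex-iTreg pool 2).

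Effector cytokine genes divided. Of 7 tested, 4 rose (Il21, Il17a, Il2 and Ifng), 2 fell and 1 was not called, with a median of 1.92. Over all genes, 18.4% were called higher and 19% lower. Il21, which drives B cell help and Th17 cell expansion, read 8.80 and 8.91 in ex-iTreg arrays, 3.96 and 4.19 in iTreg arrays and 3.54 and 3.63 in nTreg arrays. Il17a, the defining Th17 cytokine, read 9.99 and 9.96 in ex-iTreg arrays, 6.08 and 6.38 in iTreg arrays and 5.45 and 5.38 in nTreg arrays. For both, the nTreg level was under the filter level and iTreg pools lay slightly above nTreg pools, with first steps of 0.49 and 0.81 and second steps of 4.78 and 3.75. Ifng, the defining Th1 cytokine, read 9.32 and 9.44 in ex-iTreg arrays, 8.08 and 8.05 in iTreg arrays and 7.45 and 7.46 in nTreg arrays. All of its arrays were above the filter level, and it rose 3.79-fold (log2 difference 1.92, SE 0.0688, adjusted p = 8.95e-06) in called steps of 0.61 and 1.31. Lta and Ltb, the lymphotoxin genes, fell by 2.77-fold and 1.31-fold, and Tnf was not called (-0.06). Il4, Il5, Il13, Il3, Il9 and Csf2 lay under the filter level in most arrays and were not tested.

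The promoters of Il2, Il21 and Il17a are shown because these genes shared the form of their rise, well above the filter level in ex-iTreg arrays and near or under it in nTreg arrays. Il2 and Il21 are on chromosome 3 and Il17a is on chromosome 1. Each line gives the 250 bases upstream of the transcription start in RefSeq GRCm38.p6, read 5′ to 3′ on the gene's strand. Capitals mark matches on either strand to the core of NFAT sites (GGAAA, or TTTCC on the other strand) and to a loose form of the AP-1 site (TGANTCA, where N is any base).
Il2, chr3:37125955-37126204, minus strand: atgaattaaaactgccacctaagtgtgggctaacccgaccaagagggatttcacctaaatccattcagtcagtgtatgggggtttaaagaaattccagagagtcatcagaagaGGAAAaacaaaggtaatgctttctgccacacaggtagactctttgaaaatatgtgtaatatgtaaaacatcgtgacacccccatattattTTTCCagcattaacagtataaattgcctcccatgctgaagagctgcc
Il21, chr3:37232637-37232886, minus strand: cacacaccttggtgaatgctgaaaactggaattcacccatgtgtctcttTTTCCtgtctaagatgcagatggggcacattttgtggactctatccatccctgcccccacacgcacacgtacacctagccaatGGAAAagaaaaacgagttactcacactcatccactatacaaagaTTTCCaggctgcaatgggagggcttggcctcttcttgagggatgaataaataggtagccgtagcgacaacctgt
Il17a, chr1:20730655-20730904, plus strand: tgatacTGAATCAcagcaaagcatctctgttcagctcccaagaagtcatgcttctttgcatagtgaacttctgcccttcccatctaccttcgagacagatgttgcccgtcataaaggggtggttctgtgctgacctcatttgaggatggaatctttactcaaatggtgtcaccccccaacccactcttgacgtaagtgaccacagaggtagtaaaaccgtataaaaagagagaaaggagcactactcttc
The NFAT core occurred 2 times in the Il2 window, 3 times in the Il21 window and 0 times in the Il17a window. Over the same window of 32851 promoters it occurred at least once in 55.6%, at least 2 times in 21.4% and at least 3 times in 6.39%. The loose AP-1 letters occurred 1 time in the Il17a window, as TGAATCA, and in 6.7% of all promoters. These matches describe the letters and are not evidence of binding.

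Of 15 genes of Th1 cells, 10 were higher, 2 lower and 3 not called, with a median of 0.52, beside 18.4% of all genes called higher and 19% lower. Of the 10, the calls of Tbx21 and Stat4 were lost when single arrays were left out, as given with their values. Cxcr6, a chemokine receptor of tissue effector cells, read 10.72 and 10.76 in ex-iTreg arrays, 8.17 and 8.23 in iTreg arrays and 7.64 and 7.43 in nTreg arrays, a 9.23-fold difference without overlap. Fasl, the death ligand, rose 5.88-fold. Ccl5, an inflammatory chemokine, rose 3.92-fold although the first step went the other way (-0.55), and Ccl4 rose 2.36-fold. Eomes, a T-box factor of memory and cytotoxic cells, rose 2.98-fold, whereas Tbx21, the T-box factor that defines Th1 cells, read 8.10 and 8.27 in ex-iTreg arrays, 7.63 and 7.82 in iTreg arrays and 7.74 and 7.70 in nTreg arrays. That log2 difference of 0.47 (adjusted p = 0.00994) lost its call without ex-iTreg pool 2 (adjusted p = 0.0648). Stat4 was higher by 0.32, a call lost without ex-iTreg pool 1 (adjusted p = 0.0993) or nTreg pool 2 (adjusted p = 0.0634). Cxcr3, a Th1 chemokine receptor, fell by 1.39-fold, and Il12rb1, an IL-12 receptor chain, fell by 1.501-fold.

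Th17 genes did not move together, with 5 of 12 higher (18.4% over all genes), 6 lower (19%) and a median of -0.24. Besides Il17a, Il17re, a receptor chain of the IL-17 family, rose 6.69-fold and Il1r1, the IL-1 receptor that promotes Th17 cells, rose 2.82-fold. Other probe sets of Il17re rose less, by log2 differences of 1.47 and 0.57, beside 2.74 at the probe set used. Transcription factors of the list went the other way. Rora, an RAR-related orphan receptor, fell by 1.58-fold, Ahr by 1.94-fold, Irf4 by 2.04-fold, Batf by 1.495-fold and Stat3 by 1.54-fold. For Rora, the iTreg arrays were lower than both others (11.81 and 11.82 in ex-iTreg arrays, 11.32 and 11.25 in iTreg arrays, 12.48 and 12.47 in nTreg arrays). Tgfbr1, the signalling receptor of TGF-beta, fell by 4.41-fold. Ccr6, the Th17 chemokine receptor, was not called (0.09). The higher call of Ccl20 was lost without ex-iTreg pool 2 or nTreg pool 2 (adjusted p = 0.122 and 0.101).

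Th2 genes were lower in 5 of 6 tested (19% over all genes), with 0 higher (18.4%) and a median of -0.73. Gata3, which defines Th2 cells and is also high in gut Treg cells, read 9.20 and 9.15 in ex-iTreg arrays, 9.88 and 10.05 in iTreg arrays and 10.30 and 10.26 in nTreg arrays, a 2.15-fold fall in which both steps were called. Nfil3, a leucine zipper factor, fell by 4.75-fold. Maf, a transcription factor gene, and Il4ra, the IL-4 receptor chain, had log2 differences of -0.26 each. The call of Maf was lost without either ex-iTreg pool or either nTreg pool (adjusted p up to 0.1699, without ex-iTreg pool 1). This is its probe set of highest mean. Others of Maf were called lower, at -0.67, -0.56, -0.44 and -0.40, and a further one was not called (0.09). The call of Il4ra was lost without either ex-iTreg pool or nTreg pool 1 (adjusted p up to 0.133, without ex-iTreg pool 2), and its sign turned to 0.05 when the median of its probe sets was used.

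Follicular helper genes also divided, with 7 of 13 higher (18.4% over all genes) and 5 lower (19%), at a median of 0.33. Bcl6, which directs that lineage, read 9.30 and 9.26 in ex-iTreg arrays, 7.69 and 7.80 in iTreg arrays and 8.47 and 8.48 in nTreg arrays. Its steps were opposite (-0.73 and 1.53), and ex-iTreg cells ended 1.74-fold above nTreg cells. Tox2 followed the same path to 2.16-fold, and Pou2af1, a lymphoid coactivator gene, rose 5.49-fold from under the filter level. Pdcd1, which encodes PD-1, and Tox, both also markers of chronic stimulation, fell by 3.996-fold and 3.88-fold, most of it in the first step (-1.82 and -1.67). The higher calls of Cxcr5 and Slamf6 were lost without ex-iTreg pool 2 (adjusted p = 0.0677 and 0.0587), and that of Maf, a member here too, as given above.

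The genes with the largest differences of all had varied functions. Pde3b, a cyclic AMP phosphodiesterase gene that Foxp3 is known to repress, read 10.89 and 10.93 in ex-iTreg arrays, 8.44 and 8.38 in iTreg arrays and 6.03 and 6.01 in nTreg arrays. It had the largest rise with both means above the filter level, 29.6-fold (log2 difference 4.89, SE 0.0627, adjusted p = 6.77e-07), in nearly equal steps of 2.39 and 2.50. Tdrp rose 17.5-fold in the same even way (2.06 and 2.07), and Tgfbr3, the TGF-beta co-receptor betaglycan, rose 16.3-fold. Gzmk, granzyme K, read 10.43 and 10.38 in ex-iTreg arrays, 6.80 and 6.60 in iTreg arrays and 7.12 and 7.20 in nTreg arrays, and so rose 9.49-fold although iTreg cells were below nTreg cells. Further rises were those of Emp1 (9.08-fold), Sema4a, a semaphorin (8.97-fold), Tmem176a (8.26-fold), Themis, a regulator of T cell receptor signalling (8.16-fold), Slc30a4, a zinc transporter (7.27-fold) and Myo6, a myosin motor (7.14-fold). A probe set for Trgv4, a T cell receptor gamma variable segment, rose 9.82-fold, but segments of that multigene family are similar and the probe set cannot tell them apart with certainty. Besides Il21 and Il17a, Smoc2, Pdlim4, Dapl1 and Atp8b4 rose from under the filter level by 4.07 to 4.49 on the log2 scale.

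Gdpd3, a lysophospholipase D gene, had the largest fall. It read 6.57 and 6.64 in ex-iTreg arrays, 8.16 and 8.19 in iTreg arrays and 12.58 and 12.62 in nTreg arrays. Its 63.8-fold difference (log2 -6.00, SE 0.0640) was already mostly present between iTreg and nTreg cells (-4.43). Cd81, a tetraspanin, fell by 15-fold, Tmbim1 by 13.9-fold, Wls, which carries Wnt proteins to the surface, by 13.7-fold and Nrn1, which encodes neuritin, by 12.4-fold. Tktl1, Epcam, Itih5, Matn2 and Ccn4 fell to means under the filter level, by 3.92 to 4.68 on the log2 scale. Of these, the other probe set of Epcam was not called. Adjusted p-values of the genes with the largest differences were at most 5.76e-05 by limma.

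**Figure D2:**
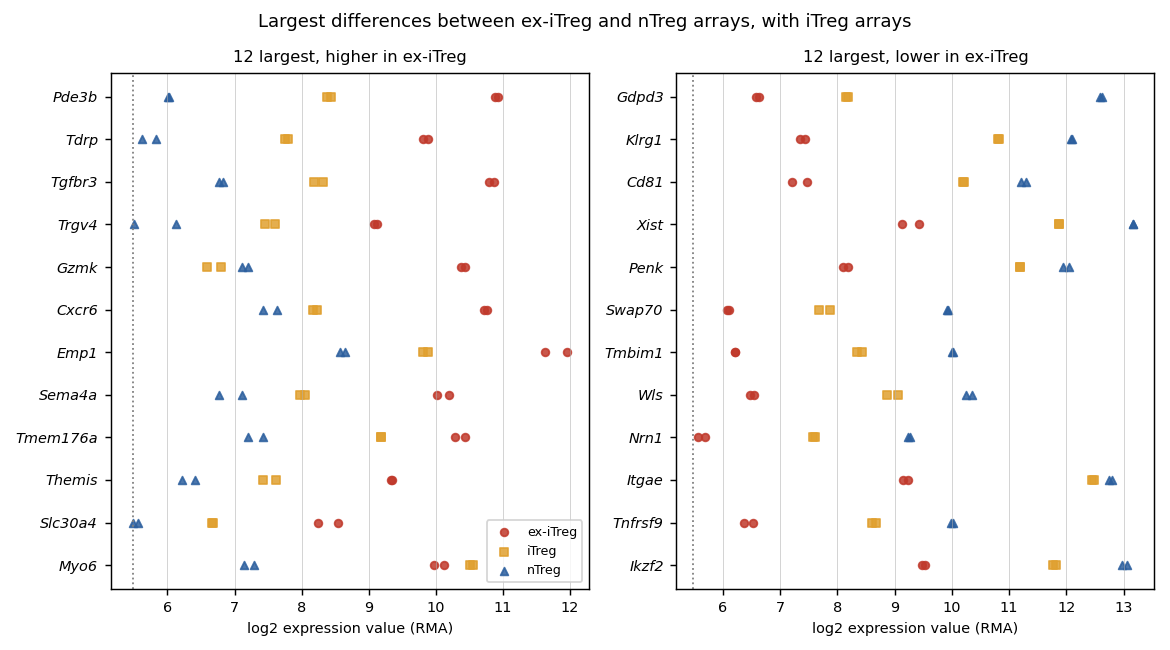
Log2 expression (x axis) in each array of the 12 genes with the largest rise (left) and the 12 with the largest fall (right) in ex-iTreg relative to nTreg arrays among genes with both means above the filter level (dotted line at 5.48). Each gene has 2 ex-iTreg (red circles), 2 iTreg (orange squares) and 2 nTreg (blue triangles) points. iTreg points lie between the others for most genes, beyond them for Myo6, where they exceed ex-iTreg points, and Gzmk, where they are the lowest.

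How the differences added up was described by which steps were called among the 642 genes of at least 2-fold. The steps share the iTreg arrays with opposite sign and sum to the whole, so these classes are descriptions and carry no test of their own. iTreg minus nTreg was called at 29.1% of all genes tested, 249 genes at least 2-fold (2.26%), and ex-iTreg minus iTreg at 36.6%, 390 genes at least 2-fold (3.54%). Both steps were called in the direction of the whole in 363 genes (56.5%), 107 higher and 256 lower. Only the second step was called in 159 genes (69 higher, 90 lower) and only the first in 82 genes (22 higher, 60 lower). The steps were called in opposite directions in 38 genes (20 higher, 18 lower), and no gene lacked a called step. The iTreg mean lay between both others in 555 genes (86.4%), and the second step was the larger in 412 (64.2%). The first step made up a median of 32.6% of the rises and 40.8% of the falls.

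These class sizes depend on what counts as a step. When a step had to be at least 1.5-fold as well as called, both steps counted in 177 genes, the second only in 286, the first only in 155 and opposite steps in 14, with 10 genes left in no class. Without iTreg pool 2, the second step only held 242 genes and opposite steps 24, and without ex-iTreg pool 2 the first step only held 133. The counts of calls in the steps moved more. With all arrays, iTreg minus nTreg had 1808 genes called higher (16.4%) and 1398 lower (12.7%), of which 97 (0.88%) and 152 (1.38%) were at least 2-fold. It had 785 higher and 762 lower without iTreg pool 2, 942 and 854 without iTreg pool 1, 1044 higher without nTreg pool 2 and 923 lower without nTreg pool 1. ex-iTreg minus iTreg had 1716 higher (15.6%) and 2315 lower (21%) with all arrays, of which 150 (1.36%) and 240 (2.18%) were at least 2-fold. It had 913 and 1337 without ex-iTreg pool 2, 937 and 1426 without ex-iTreg pool 1, 1061 and 1511 without iTreg pool 2, and 1065 higher without iTreg pool 1.

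**Figure D3:**
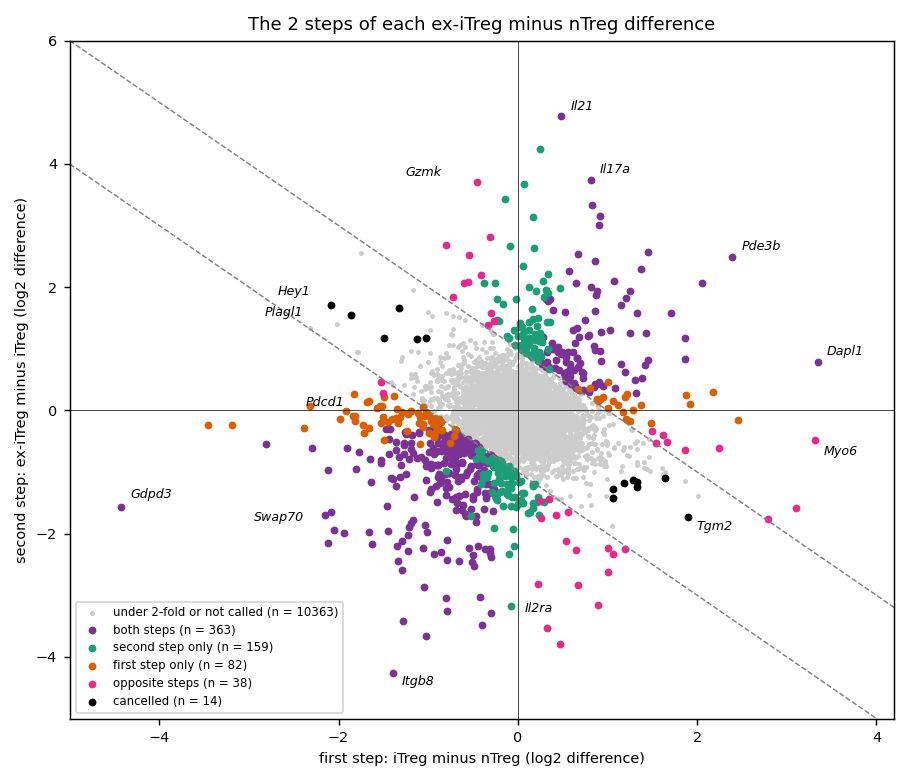
The first step (x axis, iTreg minus nTreg) against the second step (y axis, ex-iTreg minus iTreg) of each of 11019 genes, both as log2 differences, with dashed lines where their sum is a 2-fold ex-iTreg minus nTreg difference. Colours give the class of the 642 genes beyond the lines and of 14 genes whose steps cancelled. More genes lie in the lower left (both steps lower, 256) than in the upper right (both steps higher, 107).

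Genes that added up from both steps included the steepest staircases. On the rising side stood Pde3b, Tdrp, Tgfbr3, Emp1 and St8sia1, a ganglioside synthase gene, which read 10.29 and 10.45 in ex-iTreg arrays, 9.22 and 9.01 in iTreg arrays and 7.78 and 7.60 in nTreg arrays. On the falling side stood Gdpd3, Swap70, Nrn1, Tmbim1, Dusp4, a phosphatase that restrains MAP kinases (first step -1.45, second step -1.96), and Ccr9, the receptor that guides cells to the small intestine (-1.46 and -1.55). Dusp4 read 9.17 and 9.26 in ex-iTreg arrays, 11.16 and 11.18 in iTreg arrays and 12.62 and 12.61 in nTreg arrays, so that each population had its own level.

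Genes called in the second step alone were mostly close in iTreg and nTreg cells. Among the falls were Il2ra, Axl, a receptor tyrosine kinase gene (6.04 and 6.12 in ex-iTreg arrays, 8.39 and 8.42 in iTreg arrays, 8.58 and 8.44 in nTreg arrays), Cnksr3, Bcl2l15, Arnt2 and Rhoc. Axl fell by 5.38-fold with a first step of -0.10 (adjusted p = 0.34). Among the rises were Fasl, Nebl, Pxdc1, Nmrk1, Shld1 and Prelid2, the last at 3.44-fold with a first step of -0.03. A first step that was not called is not shown to be absent: for Fasl it was 0.33 (adjusted p = 0.052) and for Rhoc it was -0.80 (adjusted p = 0.067).

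A smaller group was called in the first step only, between the populations of different origin. Igfbp4, an insulin-like growth factor binding protein gene high in naive T cells, read 11.56 and 11.81 in ex-iTreg arrays, 11.35 and 11.42 in iTreg arrays and 9.002 and 9.43 in nTreg arrays. Both induced-origin populations were above nTreg cells (first step 2.17), and the second step was not called (0.30, adjusted p = 0.17). This is the probe set of highest mean, and 4 of the other 5 of Igfbp4 had a called second step of 0.25 to 0.43, so its class depends on the probe set. Pdk1, a kinase that limits pyruvate entry to mitochondria, Nav1, Dip2c and Ms4a4c had the same form, with first steps of 1.06 to 1.49, though another probe set each of Pdk1, Nav1 and Ms4a4c had a called second step. Pdcd1 read 6.79 and 6.72 in ex-iTreg arrays, 6.95 and 6.91 in iTreg arrays and 8.77 and 8.74 in nTreg arrays, with a first step of -1.82 and a second of -0.18 (adjusted p = 0.073). Gas2l3, Gem, Coq8a and Sh3gl3 fell in the same way. So did Tox at the probe set of highest mean (second step -0.29, adjusted p = 0.198), but its other probe sets had called second steps of -0.54 and -0.62. The NF-kappaB subunit gene Rel had a first step of -1.57 and a second of 0.04 (adjusted p = 0.62).

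Some differences did not add up, because the steps were opposite. In 38 genes the whole difference survived the reversal. Tbc1d4, a regulator of glucose transporter traffic, read 10.76 and 10.83 in ex-iTreg arrays, 8.15 and 8.07 in iTreg arrays and 8.97 and 8.84 in nTreg arrays. iTreg cells were thus the lowest and ex-iTreg cells the highest, and Ramp3 and Tox2 had the same order. Csf1, a macrophage growth factor gene, read 6.38 and 6.38 in ex-iTreg arrays, 9.57 and 9.51 in iTreg arrays and 8.67 and 8.62 in nTreg arrays, and H2-Ob and Ctsl also were highest in iTreg and lowest in ex-iTreg cells. Sh3bgrl2 rose by 2.79 and then fell by 1.76, ending 2.05-fold above nTreg cells. Another probe set of Igk, the immunoglobulin kappa locus, had the opposite call, so its class is uncertain.

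In 14 genes both steps were called, opposite and at least 2-fold, while the whole difference was not called or was under 1.5-fold. iTreg cells were the highest in 8 of them. Tgm2, transglutaminase 2, read 8.71 and 8.48 in ex-iTreg arrays, 10.36 and 10.30 in iTreg arrays and 8.57 and 8.30 in nTreg arrays. Its ex-iTreg and nTreg pools overlapped (whole difference 0.16, adjusted p = 0.332), and those of Vcam1, an adhesion molecule of macrophages and endothelium, did not (0.17, adjusted p = 0.194). Gpr34, Cnn3 and Cyp26b1 had the same form, as did Ifit1bl1, whose whole difference of 0.54 was called. iTreg cells were the lowest in 6, among them Hey1, a Notch target gene, at 9.45 and 9.20 in ex-iTreg arrays, 7.67 and 7.55 in iTreg arrays and 9.79 and 9.59 in nTreg arrays. Nr4a2, a nuclear receptor induced by antigen receptor signals, had steps of -1.49 and 1.18, and Epas1, Dtl and Trps1 followed the same course.

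**Figure D4:**
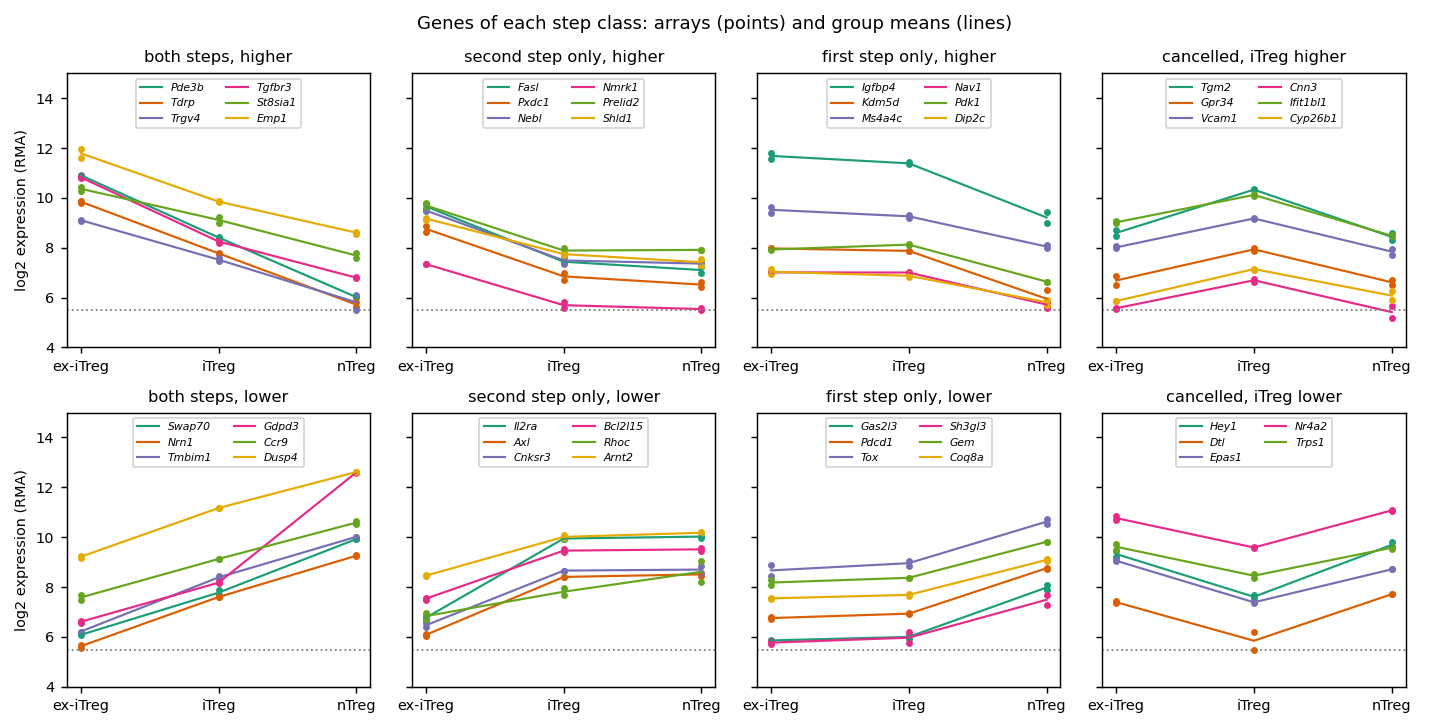
Log2 expression (y axis) of named genes in ex-iTreg, iTreg and nTreg arrays (x axis) by class of steps, with points for the 2 arrays of each group, lines through group means and the filter level of 5.48 as a dotted line. Rising genes are in the upper row and falling genes in the lower row, from left to right both steps, second step only, first step only and cancelled steps. In the cancelled panels the iTreg means form a peak (Tgm2) or a trough (Hey1) while ex-iTreg and nTreg means are close (0.16 and -0.37 apart).

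Naive and resting T cell genes rose together, 13 of 15 (18.4% over all genes), with 2 lower (19%) and a median of 0.65. Most of that lay in the first step, which was called higher in 12 of the 15, beside 16.4% over all genes. Dapl1, an early-stage lymphocyte transcript, rose by 4.14 on the log2 scale from under the filter level, and Actn1, alpha-actinin, rose 3.05-fold. Il7r, the IL-7 receptor of resting and memory T cells, read 12.87 and 12.97 in ex-iTreg arrays, 12.29 and 12.29 in iTreg arrays and 12.32 and 12.36 in nTreg arrays, a second-step rise of 0.63. Ccr7, the lymph node homing receptor, rose 1.32-fold, Klf2 1.62-fold and Satb1 1.87-fold. Id3 and Foxo1, both of which hold T cells in a resting state, fell by 1.92-fold and 1.54-fold. The call of Dgka was lost without ex-iTreg pool 2 (adjusted p = 0.0502).

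Effector memory genes had no common direction, with 9 of 24 higher (18.4% over all genes), 11 lower (19%) and a median of 0.02. Besides Gzmk, Cxcr6 and Ccl5, Lgals3, galectin 3, rose 2.27-fold and Nkg7, a cytotoxic granule gene, rose 1.98-fold. Prdm1, which encodes Blimp-1, a driver of Il10 and of effector Treg cells, read 6.72 and 6.59 in ex-iTreg arrays, 8.78 and 8.75 in iTreg arrays and 9.58 and 9.53 in nTreg arrays, a 7.46-fold fall. S100a4, S100a6 and S100a10 fell by 1.64-fold to 1.73-fold. Cd44 and Cd69, markers of antigen experience and activation, were not called (0.18 and 0.05). Of 11 cytotoxic granule genes, 6 rose (18.4% over all genes) and 4 fell (19%). With single arrays left out, the call was lost for Anxa2 without either ex-iTreg pool or nTreg pool 2 (adjusted p up to 0.0897, without ex-iTreg pool 2) and for Ahnak without ex-iTreg pool 2 or nTreg pool 1 (adjusted p up to 0.1107, without ex-iTreg pool 2). The same held for Gzmm without ex-iTreg pool 2 (adjusted p = 0.062).

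Killer cell lectin-like receptor genes were few and opposed. Klrd1, which encodes CD94, read 8.49 and 8.54 in ex-iTreg arrays, 5.50 and 5.52 in iTreg arrays and 4.67 and 4.52 in nTreg arrays. Klrk1, which encodes NKG2D, was at 7.83 and 7.80 in ex-iTreg arrays, 4.80 and 4.54 in iTreg arrays and 4.58 and 4.43 in nTreg arrays. These and Klrc1 rose from under the filter level by 2.12 to 3.91 on the log2 scale, while Klrg1 and Klrb1f fell. CD8 T and NK cells express the same receptors. Of 5 tested markers of those cells, 3 rose (Klrd1, Klrc1 and Eomes) and 1 fell, with a median of 1.57. Over all genes, 18.4% were called higher and 19% lower. The list summed on the linear scale to 814 and 777 in ex-iTreg, 277 and 305 in iTreg and 377 and 347 in nTreg arrays. Among the markers that did not rise, Cd8a was at 6.20 and 6.09 in ex-iTreg arrays and 6.07 and 6.22 in nTreg arrays and Cd8b1 fell by 3.58-fold. Ncr1, at 5.21 and 5.12 in ex-iTreg arrays and 5.10 and 4.91 in nTreg arrays, was under the filter level. The part of such cells in these values was not tested.

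Inhibitory receptors mostly fell, 7 of 9 beside 19% over all genes (median -0.79), led by Pdcd1. Lag3 fell by 1.72-fold, all in the second step, and the call of Cd5 was lost without ex-iTreg pool 1 or 2 (adjusted p = 0.0555 and 0.0657). Btla and Cd160, which bind the same ligand, were the 2 that rose, by 1.72-fold and 1.48-fold. Costimulators and TNF family genes fell in 8 of 15 (19% over all genes), and 7 of those were at least 2-fold (3.85% over all genes). Cd80 fell by 10.6-fold to a mean under the filter level, Cd27 by 3.16-fold, Cd86 by 2.52-fold and Tnfrsf1b by 2.86-fold. Ligands of the family were divided, and 3 of the 15 genes rose (Tnfsf8, Tnfsf14 and Cd28), beside 18.4% over all genes. Tnfsf8, the CD30 ligand, read 11.14 and 11.14 in ex-iTreg arrays, 9.11 and 9.02 in iTreg arrays and 8.41 and 8.43 in nTreg arrays, a 6.60-fold rise, and Tnfsf14, which encodes LIGHT, rose 4.41-fold. Cd28 rose by 1.40-fold. Tnfsf4 and Tnfsf11 were not called (-0.36 and 0.13), and Tnfsf10, the death ligand TRAIL, which is not in this list, fell at all 3 of its probe sets (log2 differences -1.26, -1.08 and -1.31).

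Among 18 chemokine and homing receptors, 6 rose (18.4% over all genes) and 9 fell (19%). Besides Ccr9, Gpr15, the receptor that brings T cells to the colon, read 6.85 and 6.90 in ex-iTreg arrays, 9.73 and 9.65 in iTreg arrays and 9.45 and 9.49 in nTreg arrays, a 6.04-fold fall after a small first step of the other sign (0.22, adjusted p = 0.047). Ccr3 fell by 4.95-fold to under the filter level, Ccr8 by 3.30-fold, also to under it, and Ccr2 by 2.20-fold. Gpr183, an oxysterol receptor that positions cells in lymphoid tissue, rose 2.54-fold. Of 10 integrin genes, 5 fell (19% over all genes) and 2 rose (18.4%). Itgav, the alpha V chain that pairs with Itgb8, fell by 2.74-fold, and Itgb3 rose 2.11-fold. With single arrays left out, calls were lost for Cxcr5 without ex-iTreg pool 2 (adjusted p = 0.0677) and for Ccr10 without either ex-iTreg pool or nTreg pool 2 (adjusted p up to 0.1237, without ex-iTreg pool 2). They were also lost for Selplg without ex-iTreg pool 2 or either nTreg pool (adjusted p up to 0.1371, without ex-iTreg pool 2) and for Itgb7 without either ex-iTreg pool or nTreg pool 1 (adjusted p up to 0.0942, without ex-iTreg pool 2).

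Cytokine receptor and signalling lists were divided. In the IL-1 receptor family, Il1r1 and Il1rl2, the IL-36 receptor, rose (2.82-fold, and 5.66-fold from under the filter level), and Il1r2, a decoy receptor, fell by 1.98-fold. In the TGF-beta list 2 of 12 rose (Tgfbr3 and Tgfbr2, 1.78-fold), beside 18.4% over all genes. In the same list 5 fell (Tgfbr1, Itgb8, Itgav, Smad3 and Tgfb1), beside 19% over all genes. The call of Tgfb1 was lost without ex-iTreg pool 1 at an adjusted p of 0.0505. NF-kappaB subunit and target genes were all lower, 12 of 12 beside 19% over all genes, with a median of -0.82. Cd83, an activation marker, fell by 8.44-fold, Bcl3 by 3.07-fold, Icam1 by 2.66-fold and Nfkbia by 1.32-fold. The call of Nfkb2 was lost without either ex-iTreg pool or nTreg pool 1 (adjusted p up to 0.1125, without ex-iTreg pool 2), and that of Tnfaip3 when any of the 6 arrays was left out (up to 0.2066, without ex-iTreg pool 1).

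**Figure D5:**
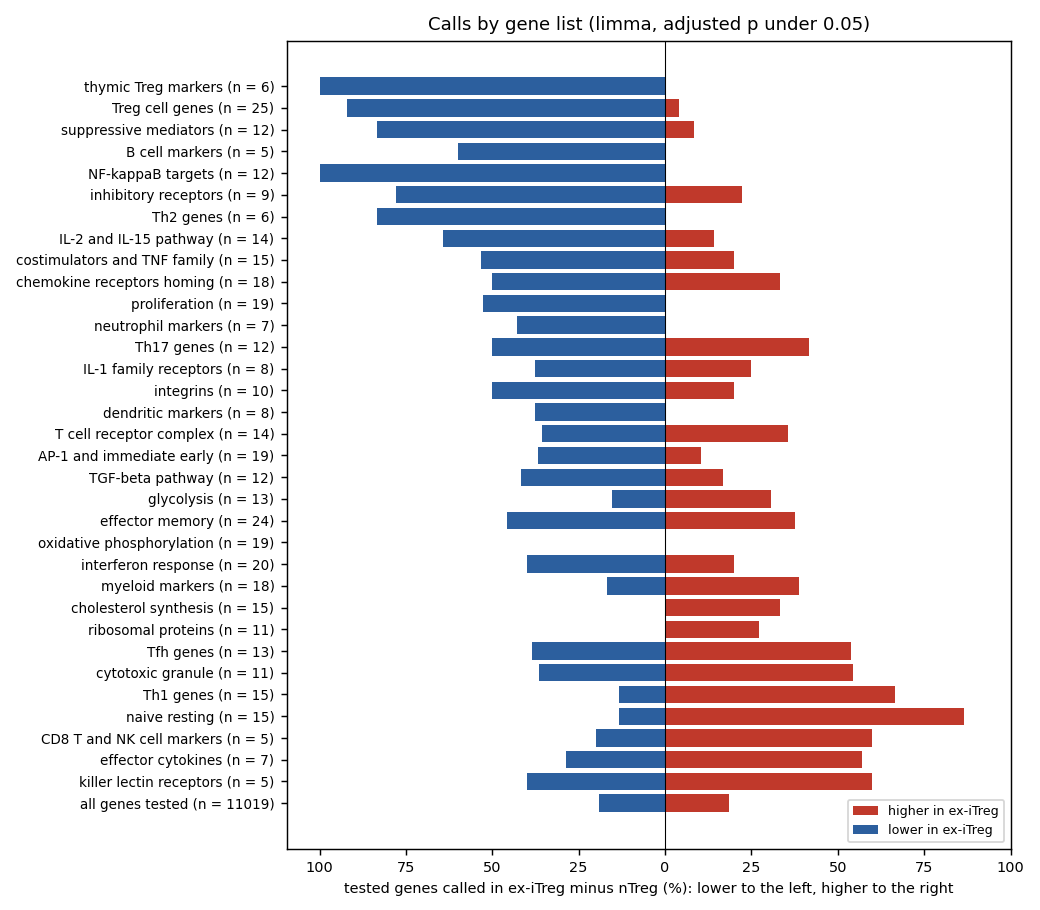
Share of the tested genes of each list (x axis, percent) that were called lower (blue, to the left) or higher (red, to the right) in ex-iTreg than in nTreg arrays by limma, with the number tested beside each list name and all 11019 genes at the bottom. Lists run from the lowest to the highest median log2 difference and were chosen with earlier results of these data known. Thymic Treg markers and NF-kappaB genes were lower in all members, and naive and resting genes were higher in 13 of 15.

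Markers of other cell types moved between the populations, and their part in the results above was not tested. Myeloid markers were called higher in ex-iTreg than in nTreg arrays in 7 of 18 (18.4% over all genes) and lower in 3 (19%). The list summed on the linear scale to 12603 and 12783 in ex-iTreg arrays, 17452 and 17361 in iTreg arrays and 15278 and 14638 in nTreg arrays, so that iTreg arrays were the highest. Ctss, the member of highest level, weighs most in that sum, at means of 12.23 in ex-iTreg, 12.54 in iTreg and 12.65 in nTreg arrays. It was called lower, as were Cebpb and Cybb. The 7 called higher were C1qa, C1qb, Csf1r, Adgre1, Cd68, Fcgr3 and Aif1. In the first step 13 of the 18 were called higher, beside 16.4% of all genes, and in the second 15 were called lower, beside 21% of all genes. C1qa, a complement gene of macrophages, read 7.83 and 7.9996 in ex-iTreg arrays, 9.004 and 8.83 in iTreg arrays and 7.42 and 7.14 in nTreg arrays, the same peak in iTreg cells as that of Tgm2, Vcam1, Csf1 and Ctsl. Calls were lost for C1qa without ex-iTreg pool 2 (adjusted p = 0.0515) and for Adgre1 without ex-iTreg pool 2 (adjusted p = 0.0548). The same held for C1qb without ex-iTreg pool 2, either iTreg pool or nTreg pool 2 (adjusted p up to 0.1764, without ex-iTreg pool 2) and for Aif1 without either ex-iTreg pool or nTreg pool 2 (adjusted p up to 0.1058, without ex-iTreg pool 1). Another C1qb probe set was called higher (0.79, adjusted p = 0.00071 by limma), and a further one was not called (0.25).

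B cell markers were called lower in 3 of 5 (19% over all genes) and higher in 0 (18.4%). The list summed to 3417 and 3384 in ex-iTreg arrays, 6121 and 6160 in iTreg arrays and 6126 and 6089 in nTreg arrays. Ighm, the immunoglobulin mu locus, held most of that sum at 11.13 and 11.06 in ex-iTreg arrays, 12.14 and 12.17 in iTreg arrays and 12.21 and 12.20 in nTreg arrays, but its sign turned to 0.15 when the median of its probe sets was used. Cd79b, a chain of the B cell receptor, read 4.50 and 4.80 in ex-iTreg arrays, 6.38 and 6.56 in iTreg arrays and 7.79 and 7.52 in nTreg arrays, and so was lower in ex-iTreg than in nTreg arrays by a log2 difference of -3.01 (adjusted p = 2.23e-05). Ms4a1, which encodes CD20, was under the filter level in ex-iTreg and iTreg arrays and at 5.64 and 5.79 in nTreg arrays (log2 difference -1.45). Cd22 and Jchain were not called (-0.40 and 0.10), and Cd79a, Pax5 and Ebf1 were under the filter level in all arrays. Neutrophil markers were lower in 3 of 7, beside 19% over all genes. Their sums were 6672 and 6591 in ex-iTreg arrays, 9678 and 10401 in iTreg arrays and 8147 and 8030 in nTreg arrays. With single arrays left out, the call was lost for Ltf without ex-iTreg pool 1 (adjusted p = 0.0523) and for Lcn2 without ex-iTreg pool 1, either iTreg pool or nTreg pool 1 (adjusted p up to 0.2029, without ex-iTreg pool 1). Dendritic cell markers were lower in 3 of 8, beside 19% over all genes. Leaving out single arrays ended the call for H2-Ab1 without either ex-iTreg pool or either nTreg pool (adjusted p up to 0.173, without ex-iTreg pool 1) and for H2-Eb1 without ex-iTreg pool 1 or nTreg pool 1 (adjusted p up to 0.1093, without ex-iTreg pool 1). Of 4 erythroid and 3 stromal or endothelial markers, 0 were called by limma in ex-iTreg minus nTreg, and 0 had an unadjusted p under 0.05 there. Their steps did differ. In the first step 3 erythroid, 1 stromal or endothelial, 6 neutrophil and 4 dendritic cell markers were called higher (16.4% over all genes), and 1 dendritic cell marker lower. In the second 3, 1, 7 and 5 of these were called lower (21% over all genes), and 0 higher.

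Sex-linked genes also differed between the populations. Xist, transcribed from the inactive X chromosome of female cells, read 9.42 and 9.12 in ex-iTreg arrays, 11.87 and 11.87 in iTreg arrays and 13.16 and 13.16 in nTreg arrays. The Y-linked genes ran the other way, with Eif2s3y at 10.41 and 10.46 in ex-iTreg arrays, 9.69 and 9.68 in iTreg arrays and 8.57 and 8.50 in nTreg arrays, and with Kdm5d and Uty higher by 2.02 and 1.91. Among the 642 genes, 29 lay on the X or Y chromosome. These were 26 of 318 tested genes on X (8.18%) and 3 of 4 on Y (75%), beside 5.83% of all genes. The labels used here give no sex of the donors, and the share of male and female cells cannot be told apart from population in these arrays. Poly-A control probe sets, 27 in number, averaged 8.81 and 8.94 in ex-iTreg arrays, 11.37 and 11.35 in iTreg arrays and 10.03 and 10.12 in nTreg arrays, whereas hybridization controls lay between 9.62 and 10.16. The poly-A averages include the TrpnX probe sets, which lay under the filter level in all arrays, between 3.09 and 3.73. The part of either difference in the gene results was not tested.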

How the data were processed

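RNA from 2 pools each of ex-iTreg, iTreg and nTreg cells was measured on Affymetrix Mouse430_2 arrays. The authors deposited log2 expression values for 45101 probe sets, made by RMA per the submitters' processing notes, and the software version is not given in the sources used here. RMA fits all arrays together and compresses low values.

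From these values, 64 control probe sets were left out and 23484 probe sets were tested, those that exceeded the overall median (5.48) in 2 or more of the 6 arrays. All 6 arrays entered limma 3.58.1 (R 4.3.3) as 3 group means, with Benjamini-Hochberg adjustment over the 23484 and calls at an adjusted p under 0.05. This fit has 3 residual degrees of freedom, and an exact permutation test of 2 against 2 pools cannot go below p = 0.33. For each gene the probe set of highest mean stands. GEO's platform annotation gave 1 symbol for 34945 probe sets, several for 932 and none for 9160. A step class uses calls of the 2 steps, and cancelled steps are called, opposite and at least 2-fold each.

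Named genes were the 12 largest differences each way with both means above the level, the 6 largest with the lower mean under it, up to 6 per step class and direction, up to 4 members per list by the size of t, fixed markers, and further list members to say which moved. The members and lists were chosen with earlier results of these data known. Deviations of like-numbered pools correlated at -0.088 (ex-iTreg and nTreg), -0.04 (ex-iTreg and iTreg) and -0.00687 (iTreg and nTreg), and the main fit did not pair arrays by pool number. Values this small cannot show whether like-numbered pools shared mice, since a shared effect small beside the pool-to-pool spread would give them too. Alternatives covered filters, normalization, the choice of probe set, the arrays in the fit, a pool block and leaving out each array. The fit was tested on simulated data. Promoter sequences are from RefSeq GRCm38.p6. Comparisons with naive cells were not analysed here.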

Additional observations from a re-analysis of the deposited data

How the results depend on the processing

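Leaving out each array in turn gave 1136 to 1858 genes called higher and 1403 to 1954 called lower in ex-iTreg than in nTreg arrays, and 206 to 239 higher and 398 to 463 lower at 2-fold or more. iTreg minus nTreg had 785 to 1486 higher and 762 to 1175 lower (94 to 112 and 139 to 186 at 2-fold or more), and ex-iTreg minus iTreg had 913 to 1796 higher and 1337 to 2394 lower (150 to 158 and 239 to 243). Both steps held 257 to 348 genes, the first only 76 to 133, the second only 181 to 242, opposite steps 24 to 35 and cancelled steps 15 to 21. With no filter, iTreg minus nTreg had 1200 genes called higher. A stricter filter left 49 genes with the first step only and 359 with both steps, among 562 genes of at least 2-fold. Counting a step only at 1.5-fold or more gave 177 genes with both steps, 155 with the first only, 286 with the second only and 14 with opposite steps. Testing against a minimum of 2-fold with limma's treat gave 107 higher and 207 lower genes, a stricter question by construction. With the pool number as a replicate block, 1793 genes were called higher and 1940 lower, the 218 higher and 424 lower genes of at least 2-fold were the same 642, and the classes held 353, 81, 173 and 34 genes, with 15 cancelled. Using the median of a gene's probe sets reversed Ighm (0.15), Il4ra (0.054), Itgal (0.29) and Ptprc (0.20), and the cause was not tested. Of 425 named or listed genes, 288 were called, and 58 of these calls were lost in at least 1 of 15 settings. Of 146 called at 2-fold or more, 3 were lost: Enah with values under the filter level set to it, and Ighm and Zbtb46. Arrays measure no depth, so signal over background limits the result: 174 of the 642 genes have a mean under the filter level. With 2 pools a group, small differences were not resolved.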

Other observations

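Cell cycle genes were lower in ex-iTreg than in nTreg arrays in 10 of 19 tested, with 0 higher and a median of -0.30, beside 19% of all genes called lower. Mki67, a marker of cycling cells, read 8.70 and 8.63 in ex-iTreg arrays, 9.02 and 9.08 in iTreg arrays and 9.65 and 9.56 in nTreg arrays. Ccnb2, a mitotic cyclin, fell by 2.29-fold and Birc5, survivin, by 2.17-fold, while Plk1, Aurka and Pcna were not called. Calls were lost for Cdk1 without ex-iTreg pool 2 or nTreg pool 2 (adjusted p up to 0.0935, without ex-iTreg pool 2) and for Bub1b without either ex-iTreg pool or either nTreg pool (adjusted p up to 0.1817, without ex-iTreg pool 2). They were also lost for Mcm3 when any array was left out (adjusted p up to 0.18, without ex-iTreg pool 1).

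Metabolic lists differed from one another. Of 19 oxidative phosphorylation genes 0 were called by limma, 4 had an unadjusted p under 0.05, and the median was 0.03. Of 13 glycolysis genes 4 were higher and 2 lower, beside 18.4% of all genes called higher and 19% lower. Slc2a3, a glucose transporter, read 9.93 and 9.97 in ex-iTreg arrays, 12.08 and 12.06 in iTreg arrays and 11.53 and 11.54 in nTreg arrays, a fall by a log2 difference of -1.58, whereas Hk2, a hexokinase, rose 1.66-fold. With single arrays left out, the call was lost for Pgam1 without either ex-iTreg pool (adjusted p up to 0.0628, without ex-iTreg pool 1) and for Ldha without ex-iTreg pool 1 (adjusted p = 0.0525). Cholesterol synthesis genes were higher in 5 of 15 (18.4% over all genes), led by Sqle at 1.62-fold. In the first step 9 of the 15 were called higher (16.4% over all genes) and 2 lower (12.7%). In the second 2 were called higher (15.6%) and 5 lower (21%). Leaving out single arrays ended the call for Fdps without either ex-iTreg pool or nTreg pool 2 (adjusted p up to 0.117, without ex-iTreg pool 2) and for Mvk when any array was left out (adjusted p up to 0.1549, without ex-iTreg pool 2). Ribosomal protein genes were called higher in 3 of 11, beside 18.4% over all genes, and these calls did not hold. Calls were lost for Rpl4 when any array was left out (adjusted p up to 0.1697, without ex-iTreg pool 2) and for Rplp0 when any array was left out (adjusted p up to 0.1404, without ex-iTreg pool 1). The same held for Rps18 without either ex-iTreg pool or nTreg pool 2 (adjusted p up to 0.118, without ex-iTreg pool 2).

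Interferon response genes had 4 of 20 higher in ex-iTreg than in nTreg arrays (18.4% over all genes) and 8 lower (19%). In the first step 7 were higher (16.4% over all genes) and 0 lower (12.7%). In the second 1 was higher (15.6%) and 13 lower (21%). Irf1 fell by 2.21-fold and Gbp3 by 2.85-fold, both in the second step, while Oas2 rose 1.71-fold. With single arrays left out, the call was lost for Ifih1 without either ex-iTreg pool (adjusted p up to 0.0677, without ex-iTreg pool 2) and for Rtp4 when any array was left out (adjusted p up to 0.2296, without ex-iTreg pool 2). Immediate early genes were lower in 7 of 19 (19% over all genes) and higher in 2 (18.4%). Fos and Jun were not called (-0.04 and 0.14). Leaving out single arrays ended the call for Egr1 without either ex-iTreg pool or nTreg pool 1 (adjusted p up to 0.1348, without ex-iTreg pool 2) and for Egr2 without ex-iTreg pool 1 (adjusted p = 0.0576). They were also lost for Junb without either ex-iTreg pool or nTreg pool 2 (adjusted p up to 0.1452, without ex-iTreg pool 1) and for Atf3 without either ex-iTreg pool or either nTreg pool (adjusted p up to 0.1276, without ex-iTreg pool 1). The same held for Nr4a2 without ex-iTreg pool 2 or either nTreg pool (adjusted p up to 0.1405, without ex-iTreg pool 2). By chromosome, genes of at least 2-fold made up 10.5% of tested genes on chromosome 13, 8.18% on X and 75% on Y (3 of 4 genes), beside 5.83% of all.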
